A study of Homo sapiens with 3 samples.

Results

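CCR4-NOT is the main cytoplasmic deadenylase of human cells, a multisubunit machine that removes the poly(A) tail of mRNAs. The 10 genes CNOT1, CNOT2, CNOT3, CNOT4, CNOT6, CNOT6L, CNOT7, CNOT8, CNOT10 and CNOT11 were taken by symbol, and each had a single row among the 50868 genes of the deposited table. The set was chosen by measured values as well as by name, on the FPKM of CNOT1, which was low in both knockdown libraries. All values of the knockdowns over control are therefore a description of these libraries. The RNA came from HGC-27, an established line from a human gastric carcinoma, at passage 6. Cells were given an siRNA against IRF3, an siRNA against YAP or a control siRNA (n.c. in the labels) for 48 h, with 1 library each, so no difference has a replicate check. The siRNAs themselves are not described further in the labels. IRF3 is a transcription factor of the antiviral response, and YAP, encoded by YAP1, is the coactivator of TEAD factors that the Hippo pathway restrains.

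CNOT1 is the scaffold on which the other subunits assemble. CNOT7 or CNOT8 and CNOT6 or CNOT6L supply the 3′ to 5′ exonuclease activity, CNOT2 and CNOT3 form the NOT module at the C-terminal end of CNOT1, and CNOT10 and CNOT11 bind its N-terminal part. CNOT4 is a RING ubiquitin ligase that is a stable subunit in yeast and binds more loosely in human cells. RNA-binding proteins and the microRNA machinery bring the complex to chosen mRNAs, and shortening of the tail is followed by silencing, decapping and decay.

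Counts assigned to genes came to 14941556 after IRF3 siRNA, 14385959 after YAP siRNA and 13949401 in control. YAP1 had 2.23 FPKM (fragments per unit of gene length and library size, as deposited) in the YAP siRNA library against 5.89 FPKM in control, a count ratio of 0.380 (95% counting interval 0.334 to 0.431). IRF3 had 2.90 FPKM in the IRF3 siRNA library against 3.55 FPKM in control, a count ratio of 0.818 (0.732 to 0.915). YAP1 was also lower than control in the IRF3 siRNA library, at 3.58 FPKM and a count ratio of 0.608 (0.546 to 0.677), further below control than IRF3 itself. IRF3 in the YAP siRNA library had 3.86 FPKM and a count ratio of 1.09 (0.980 to 1.21). BCL2L12, which runs the other way, shares 734 exon bases with IRF3 and had 710 counts after IRF3 siRNA, 679 after YAP siRNA and 560 in control. YAP1 shares 628 exon bases with AP000942.2 in the same manner. No source used here states whether counting used strand, so the IRF3 value checks its label only weakly. The line's gastric label had no marker above the filter: 0 of 6 gastric and 0 of 5 epithelial genes reached a mean of 1 FPKM, with CDH1, KRT18 and KRT19 under 0.1 FPKM. Of 4 mesenchymal genes 2 reached a mean of 1 FPKM, and CDH2 was under 0.1 FPKM. None of 3 leukocyte and 3 endothelial genes reached that mean.

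The scaffold mRNA is the one on whose values the set was chosen. CNOT1 (ENSG00000125107, chromosome 16, 58519951 to 58629886, hg38, minus strand) had 4.82 FPKM after IRF3 siRNA, 4.74 FPKM after YAP siRNA and 11.3 FPKM in control, from 1346, 1275 and 2955 counts. The knockdown libraries lay next to each other and the control library stood above both. On the log2 scale of FPKM plus 1, CNOT1 fell by 1.08 after IRF3 siRNA and by 1.10 after YAP siRNA. As plain count ratios, scaled by the library totals, these were 0.425 (0.398 to 0.454) and 0.418 (0.391 to 0.447). Between the knockdowns, IRF3 siRNA over YAP siRNA, the count ratio was 1.02 (0.941 to 1.10). Intervals of ratios and shares are exact binomial ones and those of levels are Poisson ones, and both cover counting error only, since PCR copies are not independent molecules and differences between cultures are not in them.

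Of the 10 genes, 7 passed the filter of a mean of 1 FPKM over the 3 libraries. CNOT2, CNOT4 and CNOT6L did not. CNOT1 alone of these 7 was past the 2-fold threshold on the FPKM plus 1 scale in each knockdown. The set was chosen on the low values of CNOT1, and CNOT6 was the member next outside the threshold on this scale. Among all 11103 genes kept, 111 or 1.0% were past 2-fold after IRF3 siRNA, made up of 0.612% lower and 0.387% higher. After YAP siRNA 0.820% of kept genes were past 2-fold, 0.468% lower and 0.351% higher. Between the knockdowns none of the 7 was past it, beside 0.612% of kept genes, 0.315% lower and 0.297% higher. Fewer cells of a kind and less RNA per cell cannot be told apart in such bulk libraries. In the order of ratios, 45 kept genes lay below CNOT1 after IRF3 siRNA and 31 after YAP siRNA. Both contrasts share the control library, so the values of one do not back up those of the other.

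**Figure D1:**
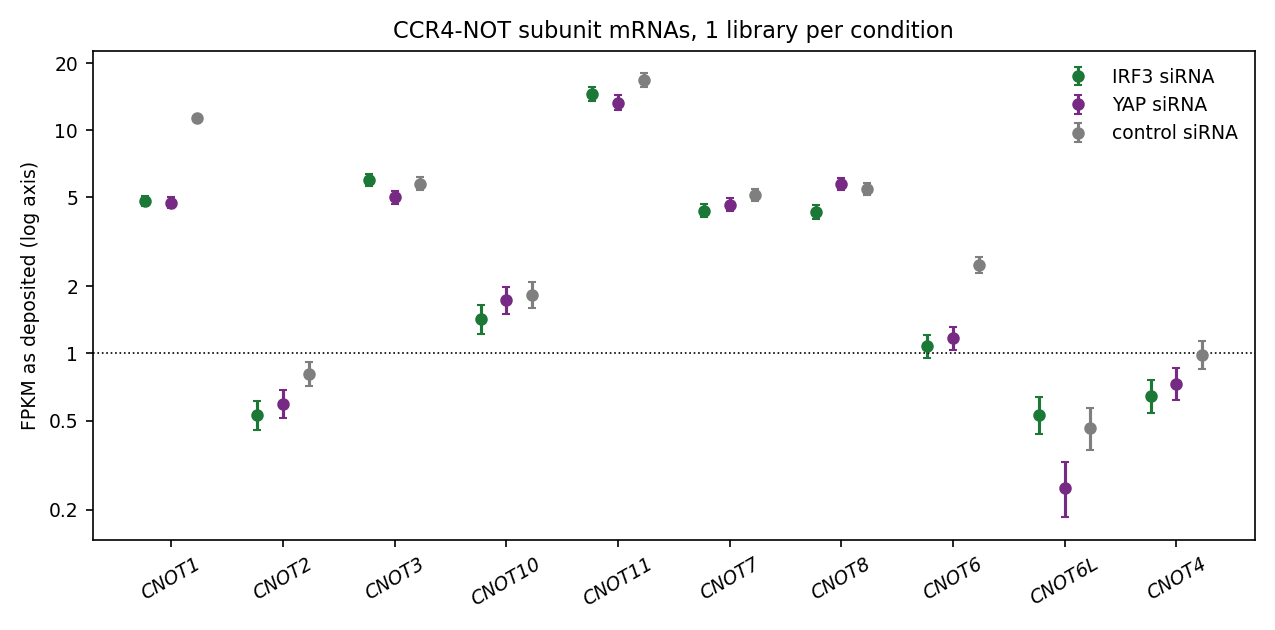
FPKM of the 10 subunit mRNAs as deposited (log axis), 1 point per library. Bars are 95% Poisson counting intervals and the dotted line is 1 FPKM. CNOT1 and CNOT6 have their control point more than 2-fold above both knockdown points, while for CNOT6L the YAP siRNA point is the low one.

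CNOT6, a catalytic subunit of the CCR4 type, came closest to the scaffold. CNOT6 (chromosome 5, 180494412 to 180578405, plus strand) had 1.08 FPKM after IRF3 siRNA, 1.17 FPKM after YAP siRNA and 2.50 FPKM in control, from 273, 285 and 591 counts. Again the knockdown libraries were alike and the control was high. The log2 ratios of FPKM plus 1 were -0.75 and -0.69, short of 2-fold on a scale whose pseudocount of 1 is large beside these levels. The count ratios to control were 0.431 (0.372 to 0.499) after IRF3 siRNA and 0.468 (0.405 to 0.540) after YAP siRNA. CNOT1 and CNOT6 were thus the 2 members with a count ratio of 0.5 or less, in each knockdown. Of all kept genes, 3.08% had such a ratio after IRF3 siRNA and 2.75% after YAP siRNA.

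Its paralog CNOT6L behaved otherwise, at a lower level. CNOT6L (chromosome 4, 77713387 to 77819615, minus strand) had 0.531 FPKM after IRF3 siRNA, 0.249 FPKM after YAP siRNA and 0.461 FPKM in control, from 111, 50 and 90 counts. Here the YAP siRNA library was low and the IRF3 siRNA library was near control. The count ratio to control was 1.15 (0.864 to 1.54) after IRF3 siRNA and 0.539 (0.373 to 0.769) after YAP siRNA. Between the knockdowns, IRF3 siRNA over YAP siRNA, it was 2.14 (1.52 to 3.05), the only member with a count ratio past 2 there. Of all kept genes, 0.901% had a ratio of 2 or more in that comparison and 0.856% one of 0.5 or less, but CNOT6L itself was under the filter. CNOT6 made up 71.1% (66.3 to 75.6) of the counts of the pair after IRF3 siRNA, 85.1% (80.8 to 88.7) after YAP siRNA and 86.8% (84.0 to 89.2) in control (exact binomial intervals). Per merged exon length, with each annotated base counted once, CNOT6 made up 77.8% after IRF3 siRNA, 89.0% after YAP siRNA and 90.3% in control.

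The sequences of the pair are shown because paralogs can exchange reads. Over 1649 aligned bases of their longest annotated coding sequences (GENCODE release 29), CNOT6 and CNOT6L were 73.9% identical, and the longest identical run was 20 bases. The most alike stretch of 60 bases, at coding positions 919 to 978 of each, still held 6 mismatches, shown in capitals:

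CNOT6: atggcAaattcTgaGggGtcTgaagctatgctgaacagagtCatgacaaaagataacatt

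CNOT6L: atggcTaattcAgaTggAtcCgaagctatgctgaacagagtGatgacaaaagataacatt

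None of the 6821 distinct 50-base words of the CNOT6 transcripts occurred in the transcript of another gene. Of the CNOT6L words, 6.71% occurred elsewhere, all in the pseudogene CNOT6LP1. CNOT6LP1 itself had 11 counts after IRF3 siRNA, 17 after YAP siRNA and 22 in control. No source used here states how reads with more than one match were treated, so the low counts of CNOT6L carry that uncertainty.

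The CAF1-type exonucleases CNOT7 and CNOT8 had count ratios to control between 0.787 and 1.05. CNOT7 had 4.36 FPKM after IRF3 siRNA, 4.64 FPKM after YAP siRNA and 5.15 FPKM in control, from 878, 899 and 967 counts. Its count ratios to control were 0.848 (0.773 to 0.930) and 0.901 (0.822 to 0.988). CNOT8, its paralog (chromosome 5, 154857553 to 154876793), had 4.30 FPKM after IRF3 siRNA, 5.73 FPKM after YAP siRNA and 5.47 FPKM in control, from 813, 1043 and 965 counts. The IRF3 siRNA library was the low one here, unlike for CNOT6L. The count ratio of CNOT8 to control was 0.787 (0.716 to 0.864) after IRF3 siRNA and 1.05 (0.959 to 1.15) after YAP siRNA. Between the knockdowns it was 0.750 (0.684 to 0.823), the lowest of the members there. CNOT7 made up 51.9% (49.5 to 54.3) of the counts of this pair after IRF3 siRNA, 46.3% (44.1 to 48.5) after YAP siRNA and 50.1% (47.8 to 52.3) in control. These shares of counts are not scaled by length. Per merged exon length, CNOT7 made up 27.9% of the pair after IRF3 siRNA, 23.6% after YAP siRNA and 26.5% in control.

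**Figure D2:**
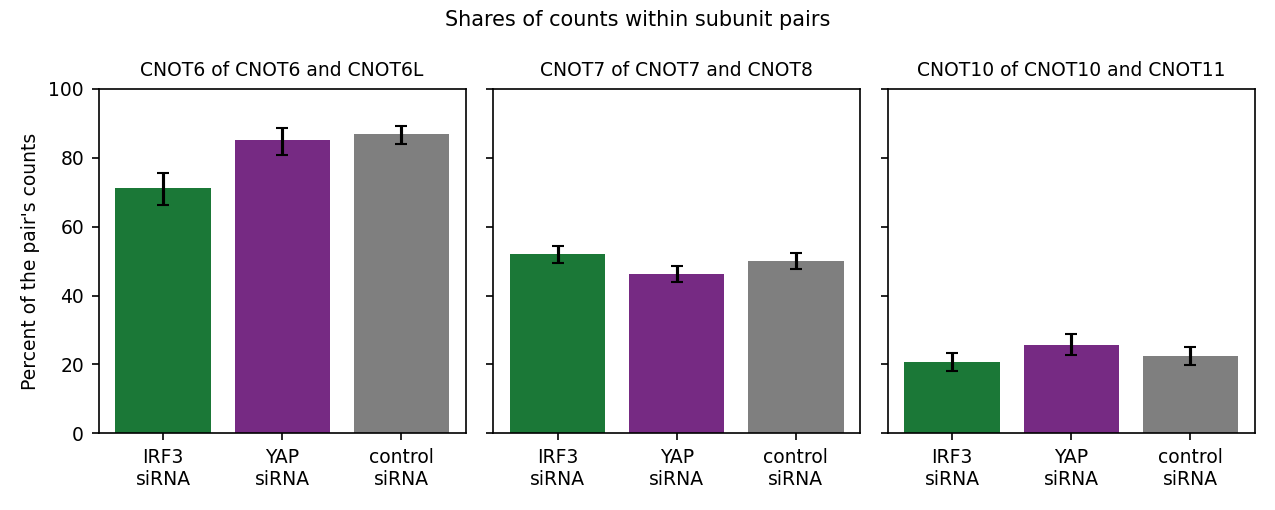
Percent of the counts of each subunit pair that came from the first gene, 1 bar per library with its 95% exact binomial interval. Counts are not scaled by gene length. The CNOT6 share is lowest after IRF3 siRNA (71.1%), beside 85.1% after YAP siRNA and 86.8% in control, while the CNOT7 share stays between 46.3% and 51.9%.

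In the NOT module, CNOT3 had 6.00 FPKM after IRF3 siRNA, 5.02 FPKM after YAP siRNA and 5.77 FPKM in control, from 1097, 883 and 985 counts. The IRF3 siRNA value was the highest, and its count ratio to control was 1.04 (0.953 to 1.13), against 0.869 (0.793 to 0.953) after YAP siRNA. Between the knockdowns the CNOT3 count ratio was 1.20 (1.09 to 1.31). CNOT2, its partner, was under the filter, with 0.529 FPKM after IRF3 siRNA, 0.594 FPKM after YAP siRNA and 0.808 FPKM in control. From 183, 198 and 261 counts, the CNOT2 count ratios to control were 0.655 (0.539 to 0.794) and 0.736 (0.608 to 0.888). Both knockdown values of CNOT2 lay below control.

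CNOT11 had the highest deposited FPKM of the complex in each library, with 14.5 FPKM after IRF3 siRNA, 13.3 FPKM after YAP siRNA and 16.8 FPKM in control. From 721, 634 and 779 counts, its count ratios to control were 0.864 (0.780 to 0.957) and 0.789 (0.710 to 0.878). CNOT10, which pairs with CNOT11, had 1.42 FPKM after IRF3 siRNA, 1.73 FPKM after YAP siRNA and 1.83 FPKM in control. From 187, 219 and 224 counts, its count ratios to control were 0.779 (0.638 to 0.951) and 0.948 (0.783 to 1.15). The ubiquitin ligase CNOT4 was also under the filter, with 0.643 FPKM after IRF3 siRNA, 0.732 FPKM after YAP siRNA and 0.989 FPKM in control. From 135, 148 and 194 counts, the CNOT4 ratios were 0.650 (0.518 to 0.813) and 0.740 (0.593 to 0.921).

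**Figure D3:**
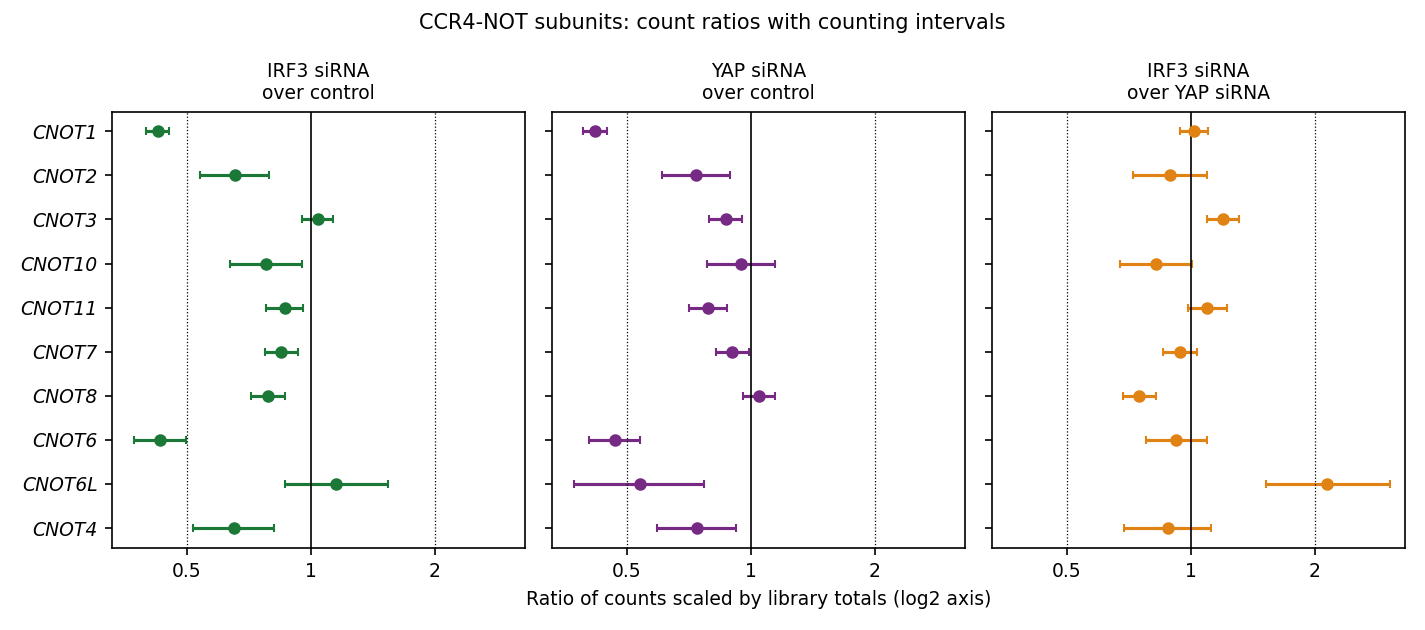
Count ratios of the 10 subunits in 3 comparisons (log2 axis), scaled by library totals, with 95% exact binomial counting intervals. Dotted lines mark ratios of 0.5 and 2. CNOT1 and CNOT6 lie left of 0.5 in both knockdowns over control and near 1 between the knockdowns, where CNOT6L lies at 2.14.

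Most members lay below control in both knockdowns, given here as a description of the chosen set. After IRF3 siRNA 6 of the 7 kept members had a log2 ratio below 0 and after YAP siRNA also 6, beside 53.9% and 53.4% of all kept genes. The median log2 ratio of the 7 was -0.22 after IRF3 siRNA and -0.17 after YAP siRNA, beside -0.03 and -0.02 over all kept genes. Over all 10 members, the counting interval of the count ratio lay below 1 for 8 in each knockdown and above 1 for none. Among kept genes, a set that leaves out CNOT2, CNOT4 and CNOT6L, the interval lay below 1 for 32.6% after IRF3 siRNA and 30.2% after YAP siRNA. Of the kept members, all but CNOT3 had it below 1 after IRF3 siRNA. After YAP siRNA, all kept members but CNOT8 and CNOT10 had it below 1. The genes whose interval held 1 were CNOT3 and CNOT6L after IRF3 siRNA, and CNOT8 and CNOT10 after YAP siRNA. Between the knockdowns the interval held 1 for 7 of 10 members, lay above 1 for CNOT3 and CNOT6L, and lay below 1 for CNOT8. In that comparison 16.0% of kept genes lay above and 15.6% below. Of the 7 kept members 4 had a log2 ratio below 0 there, beside 51.8% of all kept genes, and their median was -0.06, beside -0.01. By its median, the lean below control was smaller with the trends over all genes, described further on, removed. With a trend in level and length removed, 6 of 7 stayed below 0 after IRF3 siRNA (median -0.16) and 4 of 7 after YAP siRNA (median -0.06). With GC content added to the trend, 4 of 7 were below 0 in each knockdown, with medians of -0.07 after IRF3 siRNA and -0.15 after YAP siRNA. CNOT3, CNOT7 and CNOT10 were then above 0 after IRF3 siRNA, and CNOT7, CNOT8 and CNOT10 after YAP siRNA.

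Levels of different subunits can be compared only per length, and the length behind the deposited FPKM matters here. The gene length implied by the deposited counts and FPKM was within 0.1% of the summed length of all distinct annotated exons for 87.5% of 11072 kept genes (GENCODE release 29). That sum counts a base again for each overlapping exon. Merged exon length matched for 17.0%. Genes with many annotated isoforms therefore have low deposited FPKM. For CNOT8 the implied length was 12.7 kb and the merged length 3.93 kb, a ratio of 3.22, for CNOT6 the ratio was 2.57, and for CNOT11 it was 1.19. Ratios between libraries do not depend on that length, apart from the weight of the pseudocount. Implied and summed length did not match for CNOT1 (18692 and 17311 bases), CNOT3 (12229 and 14598) and CNOT6L (13982 and 14140). The merged lengths of these genes may thus differ from those of the annotation used for counting.

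On merged exon length, as FPKM recomputed from the counts, CNOT1 stood at 8.30 after IRF3 siRNA, 8.17 after YAP siRNA and 19.5 in control. CNOT11 had 17.3 after IRF3 siRNA, 15.8 after YAP siRNA and 20.05 in control, and CNOT8 had 13.8 after IRF3 siRNA, 18.4 after YAP siRNA and 17.6 in control. In the control library CNOT1 (18.8 to 20.2) and CNOT11 (18.7 to 21.5) overlapped in their Poisson intervals at the top of the complex. CNOT8 (16.5 to 18.7) lay under CNOT1 and touched the interval of CNOT11, and CNOT3 (9.63 to 10.9) came next. CNOT1 held rank 2 of 10 in control and rank 4 in each knockdown library, behind CNOT11, CNOT8 and CNOT3. After YAP siRNA its interval (7.72 to 8.63) met that of CNOT3 (8.34 to 9.53). CNOT1 made up 13.0% of the summed level of the 10 mRNAs after IRF3 siRNA, 12.4% after YAP siRNA and 22.3% in control. CNOT7 and CNOT8 together made up 30.1% after IRF3 siRNA, 36.6% after YAP siRNA and 27.3% in control. The summed level of CNOT7 and CNOT8 was 19.2 after IRF3 siRNA, 24.2 after YAP siRNA and 23.9 in control. The total includes CNOT1, on which the set was chosen, so its low knockdown values raise the shares of the others. CNOT6 with CNOT6L made up 5.59% after IRF3 siRNA, 5.12% after YAP siRNA and 8.14% in control. The summed level of the other 9 mRNAs was 55.5 after IRF3 siRNA, 57.9 after YAP siRNA and 68.0 in control. CNOT2, CNOT4 and CNOT6L took the last 3 places in every library. Merged length takes in the exons of all annotated isoforms, 14.0 kb for CNOT2, 10.9 kb for CNOT7 and 3.93 kb for CNOT8. The isoforms in use were not measured, so these ranks and shares are tied to the length used. By plain counts in control, CNOT2 (261) lay above CNOT10 (224).

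Gene length also moved with the ratios themselves. With kept genes divided into 10 equal groups by implied length, CNOT1 (18.7 kb) and CNOT6 (16.9 kb) belonged to the longest group, which starts at 14.8 kb. That group had a median log2 ratio of -0.17 after IRF3 siRNA and -0.15 after YAP siRNA, against 0.08 and 0.09 in the shortest group. In the longest group 1.44% of genes were lower by 2-fold after IRF3 siRNA and 1.26% after YAP siRNA, beside 1.26% in both for the shortest group. In the groups between, the share ran from 0.270% to 0.541% after IRF3 siRNA and from 0.180% to 0.360% after YAP siRNA. With a smooth trend in level and length removed, CNOT1 stood at -0.94 after IRF3 siRNA and -0.96 after YAP siRNA, no longer past 2-fold. With GC content of the transcripts added, CNOT1 stood at -0.80 and -0.87 and CNOT6 at -0.42 and -0.40. CNOT3, CNOT7 and CNOT8 belonged to the second longest group and CNOT11 (3.32 kb) to the third shortest. The part of length in the values of CNOT1 was not tested beyond this.

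**Figure D4:**
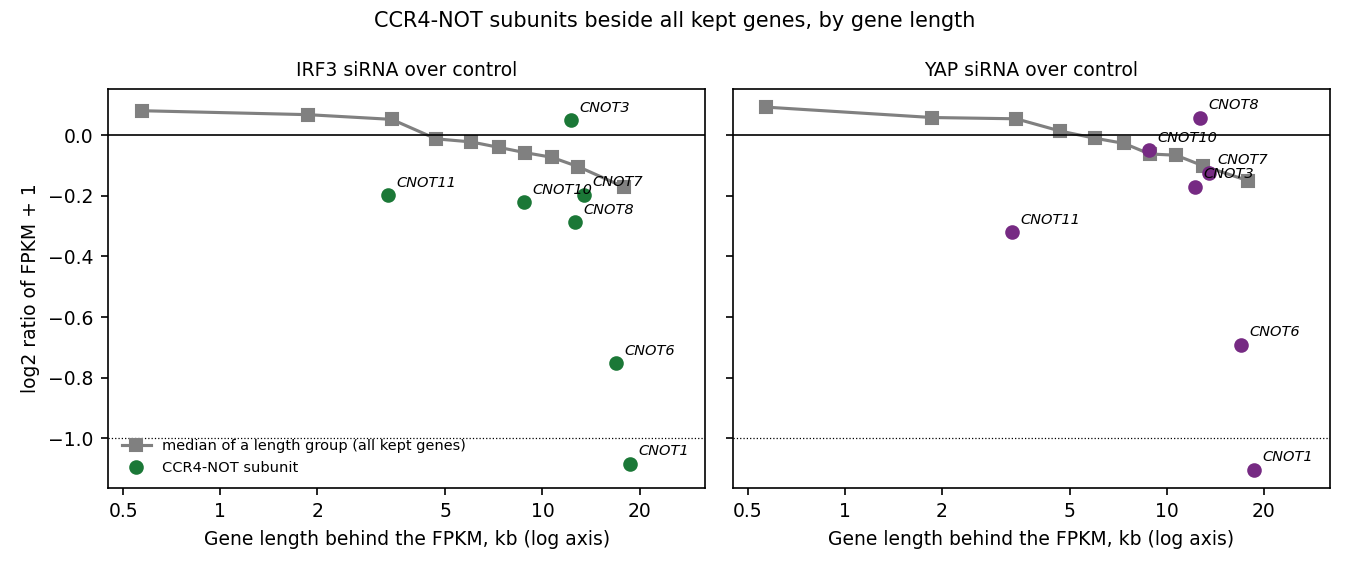
Log2 ratio of FPKM + 1 against the gene length behind the FPKM (log axis). Grey squares are medians of 10 equal length groups of kept genes and coloured points are the 7 kept subunits. CNOT1 and CNOT6 lie far under the grey line at the long end, and CNOT11 lies under it at 3.32 kb.

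Reads could also be shared with overlapping neighbours, which lie on the opposite strand except for the pseudogene SUGT1P2 at CNOT10. The exons of CNOT1 overlap those of SETD6, a lysine methyltransferase gene, by 1086 bases, and 9.82% of the 50-base words of CNOT1 transcripts occur in other genes. SETD6 had 133 counts after IRF3 siRNA, 147 after YAP siRNA and 164 in control. With the counts of overlapping genes added, the log2 count ratio of CNOT1 was -1.17 in both knockdowns. CNOT3 overlaps LENG1 by 548 bases, and CNOT2, CNOT7, CNOT8, CNOT10 and CNOT11 overlap neighbours by smaller stretches. CNOT4, CNOT6 and CNOT6L overlap no annotated exon of another gene.

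The promoters were searched for the binding motifs of the targeted factors. RefSeq starts (GRCh38.p14) were at hand for 8 of the 10 genes, with 14 starts in all, and the 250 bases before each were read on both strands. CNOT1 and CNOT7 were not searched. The CNOT10 window (chr3:32695291-32695540) lies inside the gene, which runs from 32685145 to 32773875. The bases before that gene start were not searched. The TEAD motif GGAATG was found before 2 of the 14 starts, and before 11.9% of all 35116 starts. The IRF motif, GAAA and again GAAA with 2 bases of any kind between, was found before none of the 14, and before 3.02% of all. The TEAD matches, in capitals, lay before one start each of CNOT2 (chr12:70243550-70243579, plus strand) and CNOT10 (chr3:32695510-32695539, plus strand):

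CNOT2: ccgcaaggcgggGGAATGccccggggccgg

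CNOT10: acattctgtattGGAATGtgtctgtgcttt

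The window before the CNOT6 start (chr5:180494129-180494378, plus strand) is shown because CNOT6 had the lowest count ratios after CNOT1, and it holds neither motif:

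CNOT6: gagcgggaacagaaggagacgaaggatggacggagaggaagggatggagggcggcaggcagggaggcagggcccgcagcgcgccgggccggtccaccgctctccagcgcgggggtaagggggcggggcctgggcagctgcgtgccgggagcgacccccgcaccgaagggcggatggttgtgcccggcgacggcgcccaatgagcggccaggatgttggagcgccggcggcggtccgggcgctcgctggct

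The TEAD matches of CNOT2 and CNOT10 both lie inside the deposited gene bounds, which start at 70242994 for CNOT2 and at 32685145 for CNOT10. A match of letters is a description and shows no binding.

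A further subunit and a partner of the complex, outside the 10, were measured too. RQCD1, the older symbol of CNOT9, a subunit that binds the microRNA protein TNRC6 and other adaptors, had 9.21 FPKM after IRF3 siRNA, 7.04 FPKM after YAP siRNA and 9.80 FPKM in control (log2 ratios -0.08 and -0.43). TNKS1BP1, a large partner of the complex, had 25.0 FPKM after IRF3 siRNA, 22.5 FPKM after YAP siRNA and 23.9 FPKM in control (0.07 and -0.08). Neither was past 2-fold.

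Genes that work with the complex were read by lists, each given as kept members, with no member past 2-fold on the FPKM plus 1 scale unless named. Each pair of values is the log2 ratio of FPKM plus 1 over control after IRF3 siRNA and after YAP siRNA, and over all kept genes the medians were -0.03 and -0.02. The trends in level, length and GC content were not removed from the values of any list. For the 7 kept of 8 other deadenylases the medians were -0.20 after IRF3 siRNA and -0.12 after YAP siRNA. PARN, a poly(A)-specific ribonuclease, had -0.58 and -0.26, and TOE1, a nuclear deadenylase, had 0.33 and 0.11. For the 11 kept of 22 adaptors that recruit CCR4-NOT the medians were -0.41 and -0.20, and 10 of 11 ratios were below 0 in each knockdown, beside 53.9% of all kept genes after IRF3 siRNA and 53.4% after YAP siRNA. ZFP36L1 and ZFP36L2, which bind AU-rich elements, had -0.54 and -0.93, and -0.74 and -0.62. As a plain count ratio ZFP36L1 was at 0.474 after YAP siRNA, where 2.75% of all kept genes were at 0.5 or less. The microRNA silencing list kept 3 of 7 members, AGO1 (-0.57 and -0.61), AGO2 (-0.53 and -0.54) and AGO4 (-0.46 and -0.28).

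The lists for decay after deadenylation and for the poly(A) tail had medians nearer those of all kept genes than the adaptors had. Of all kept genes 53.9% were below 0 after IRF3 siRNA and 53.4% after YAP siRNA. The 16 kept of 18 decapping and 5′ decay genes had medians of 0.05 in both knockdowns, with 7 below 0 after IRF3 siRNA and 8 after YAP siRNA. PATL1, a scaffold between deadenylation and decapping, had -0.60 and -0.66, and LSM4, an LSM ring protein, had -0.23 and -0.54. The other ring genes, LSM1, LSM2, LSM3, LSM5, LSM6 and LSM7, were above 0 in both knockdowns. The highest of them were LSM5 after IRF3 siRNA (0.43) and LSM6 after YAP siRNA (0.42). The 14 kept of 15 exosome and SKI genes had medians of 0.08 in both, led by the exosome core gene EXOSC5 (0.46 and 0.17) and by EXOSC10 (-0.19 and -0.32). Of these 14 genes, 3 were below 0 after IRF3 siRNA and 6 after YAP siRNA. The 7 kept of 10 genes of poly(A) tail binding and synthesis had medians of -0.10 and -0.06, with PABPC1, the main cytoplasmic poly(A)-binding protein, at -0.47 and -0.54 and PABPC4 at -0.34 and -0.35. Of these 7 genes, 6 were below 0 after IRF3 siRNA and 5 after YAP siRNA.

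Known short-lived mRNAs with AU-rich elements, a class of which CCR4-NOT substrates are part, kept 17 of 24 members. Their medians were -0.02 after IRF3 siRNA and -0.00397 after YAP siRNA. IER2, an immediate early gene, was the single member past 2-fold on the FPKM plus 1 scale, with 6.93 FPKM after IRF3 siRNA, 24.5 FPKM after YAP siRNA and 7.01 FPKM in control (log2 ratios -0.02 and 1.67, and -1.68 for IRF3 siRNA over YAP siRNA). As a plain count ratio EGR1 was at 0.490 after YAP siRNA, from 48 counts against 95 in control. Of all kept genes 2.75% were at 0.5 or less there. After IRF3 siRNA 12 of 17 ratios were below 0, beside 53.9% of all kept genes, and after YAP siRNA 9 of 17, beside 53.4%.

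**Figure D5:**
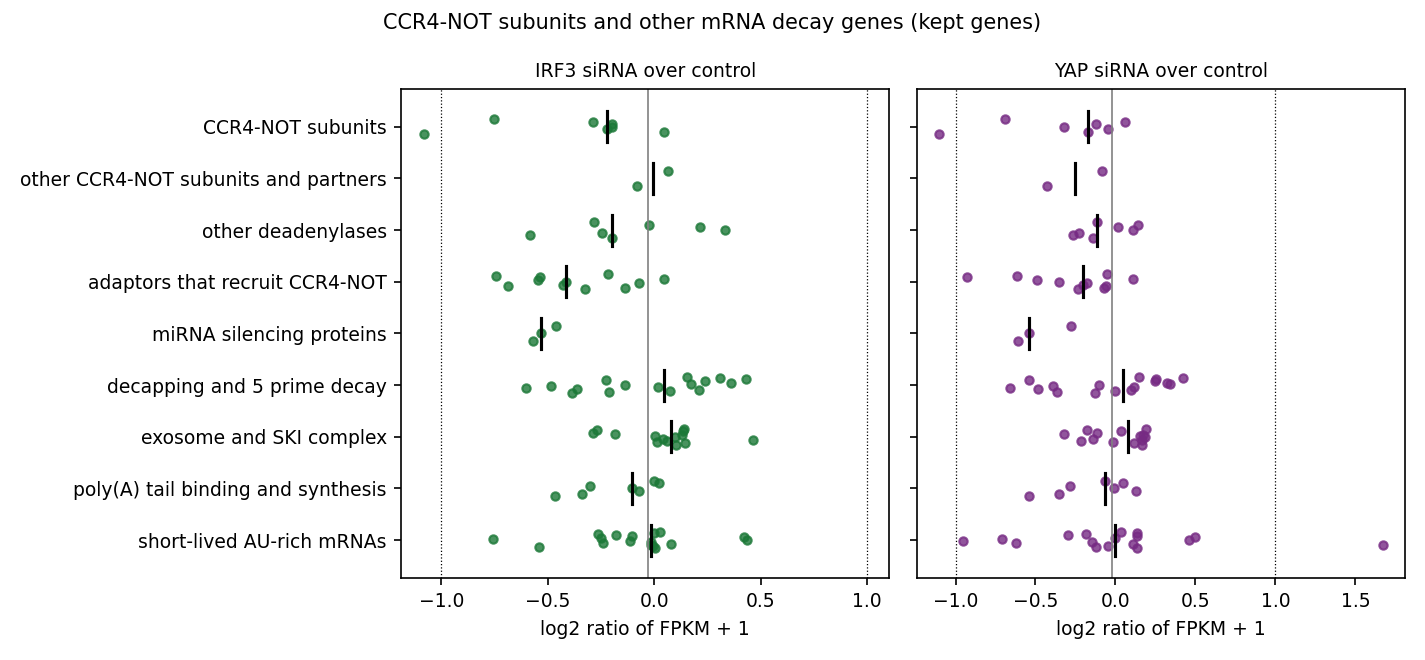
Log2 ratios of FPKM + 1 for kept genes of the complex and of 8 lists of mRNA decay genes, 1 point per gene. Black bars are list medians, the grey line is the median of all kept genes, and dotted lines mark 2-fold. CNOT1 is the leftmost point in each panel, and IER2 is the point past 2-fold on the right after YAP siRNA.

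By the larger of the absolute differences in log2 ratio over both knockdowns, the 5 genes most like CNOT1 among 5291 genes with a mean of at least 5 FPKM were CBX5, BAZ1B, FAT1, CKAP5 and RCOR1. Their differences ran from 0.09 for CBX5 to 0.13 for RCOR1, over 3 libraries that share the control. The implied lengths of these genes ran from 6.63 kb for RCOR1 to 24.9 kb for FAT1.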

How the data were processed

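RNA sequencing of 3 libraries was analysed. The deposited table holds FPKM and raw counts per gene, per the file headers. The submitters' processing notes name TopHat2 2.0.9 and hg38. For the counter, annotation release, read length and strand, the sources used here give nothing. Each FPKM value was within 1% of the count scaled by an implied gene length and the column total (45223 of 45223 nonzero values).

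Log2 ratios were taken on FPKM with a pseudocount of 1 added, so changes of low genes are understated. A mean FPKM of 1 or more over the libraries was the filter, and 2-fold was the threshold. With 1 library per group no test across samples was possible and no p-value is given. Count ratios carry 95% exact binomial intervals. Totals of 13949401 to 14941556 counts set that precision.

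The members and gene lists were chosen with earlier results of these data known. Named genes are the 10 members, IRF3, YAP1, list members past 2-fold or otherwise up to 2 with the largest ratio in size, and 5 genes most like CNOT1. AGO4, RQCD1 and TNKS1BP1 were named as well, to account for short lists. CDH1, KRT18 and KRT19 were named as epithelial markers and CDH2 as a mesenchymal one. EGR1 and the LSM ring genes beside LSM4 were named after values were seen. Genes that share exons or sequence with a named gene (BCL2L12, AP000942.2, CNOT6LP1, SETD6, LENG1, SUGT1P2) were named for that overlap, after values were seen. Other settings were a pseudocount of 0.1, other filters, median centring, a 3-fold threshold, TMM-scaled CPM (edgeR 4.0.16), plain count ratios and removal of a spline trend in level and length. Merged exon lengths, GC content and summing of overlapping genes were added after seeing the data. The 2-fold rule and the intervals were tried on simulated counts with Poisson noise only. Such counts hold no differences between cultures, so the trial cannot speak to those. Exons and transcripts came from GENCODE release 29 and promoters from RefSeq. Python 3.11.15, pandas 2.3.3, scipy 1.17.1, patsy 1.0.2, Biopython 1.88 and R 4.3.3 were used.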

Additional observations from a re-analysis of the deposited data

How the results depend on the processing

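The number of members past the threshold was 1 in each knockdown over control. It was 2, CNOT1 and CNOT6, in both with a pseudocount of 0.1 and with plain count ratios. It was also 2 in both with overlapping genes summed, a setting that uses count ratios with no pseudocount too, and CNOT6, which has no overlap, had the same ratio there as in plain count ratios. With TMM-scaled CPM it was 2 after IRF3 siRNA and stayed 1 after YAP siRNA. It was 0 in both at 3-fold, and 0 with the trend in level and length removed, with or without GC content. It stayed 1 with the filter of 5 FPKM, no filter, median centring and merged exon length. On merged exon length 9 members, all but CNOT6L, passed the filter, with medians of -0.32 after IRF3 siRNA and -0.24 after YAP siRNA. Between the knockdowns the number past the threshold was 0 in all of these settings. Over these settings the log2 ratio of CNOT1 ran from -1.23 to -0.80 after IRF3 siRNA and from -1.26 to -0.87 after YAP siRNA. Of 201 values of single members under the other settings, 192 kept their sign and 9 did not: CNOT7 and CNOT10 in 7 values over control, 6 with a trend removed and 1 with TMM scaling, and CNOT1 and CNOT11 between the knockdowns with overlapping genes summed. No paired analysis was possible because each group has 1 library, so no library could be left out either.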
